A study of Mus musculus with 10 samples.

Results

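The nuclear-encoded subunits of respiratory complexes II, III and IV and of ATP synthase (complex V), together with cytochrome c, were taken by gene symbol from an expression table of mouse colon. The symbols were Sdha to Sdhd, those starting with Uqcr or Atp5, Cyc1, Cycs, and those of the Cox4 to Cox8 series followed by a, b or c. This took 45 of the 18398 genes of the table: 4 of complex II, 9 of complex III, 1 for cytochrome c, 14 of complex IV and 17 of ATP synthase. The pattern leaves out Cox4i1 and Cox4i2, which encode subunit 4 of complex IV, and takes in Cox7a2l, whose product is known as an assembly factor of respiratory supercomplexes. Colon RNA of wild-type mice was sequenced in 10 libraries, 5 labelled as controls on a normal diet and 5 as treated with a pro-inflammatory diet. The title of the series names colitis and microbiota of the gut. The labels do not give strain, sex, age, diet composition, whether colitis was induced in these mice, or whether each library came from its own animal. Values are FPKM, that is fragments scaled by gene length and library size, and rest on 15652783 to 18341956 reads on genes per library.

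Complex II oxidises succinate and passes the electrons to ubiquinone, complex III hands them to cytochrome c, and complex IV, cytochrome c oxidase, passes them to oxygen. Complexes III and IV pump protons across the inner mitochondrial membrane, and ATP synthase uses the returning protons to make ATP. Each complex except complex II also holds subunits encoded in mitochondrial DNA, which were not analysed here. Absorptive colonocytes are known to rely on this chain to oxidise butyrate, the main fuel they take from bacterial fermentation.

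Some libraries stood apart before any member was considered. Pro-inflammatory diet libraries 2 and 5 held the distal colon genes Hoxb13, Hoxd13, Hoxd12 and Hoxa13 at a sum of 4.60 and 31.8 FPKM, while the remaining 8 libraries ran from 259 to 416. The same libraries held Car1, a carbonic anhydrase of colonocytes, at 3568 and 2334 FPKM, against 165 to 845 elsewhere. Car1 does not stand for its list: of 6 genes of mature colonocytes, 4 had a log2 fold change between the diets above 0 and 2 below (median 0.04). Whether these libraries held more mature colonocytes was not tested. Normal diet libraries 1, 2 and 3 held the clock gene Arntl at 3.12 to 4.12 FPKM, and the remaining 7 at 0.450 to 1.48. Normal diet library 4 held a sum of 493 FPKM over 8 striated muscle genes, against 10.3 to 21.7 elsewhere. The 10 epithelial and the 10 smooth muscle markers were present in every library, at sums of 6301 to 8894 and 2387 to 4055 FPKM, as in pieces of the colon wall. In such bulk samples, fewer cells of a type and less RNA per cell cannot be told apart.

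Most members were slightly higher on the pro-inflammatory diet, and none passed the threshold. Of 44 members with a mean of at least 1 FPKM, 41 had a log2 fold change above 0 and 3 below, with a median of 0.15 against -0.01 over all 12345 genes tested. Summed over all 45 members, the level was 11411 ± 251 FPKM with the normal diet and 12561 ± 654 with the pro-inflammatory one (SD over 5 libraries in each group), a ratio of 1.10. Total FPKM over all genes also differed, at 380001 to 391358 on the normal and 380703 to 404462 on the pro-inflammatory diet. Of this total the members made up 2.97% and 3.19%. In limma on log2(FPKM + 1), 0 members and 0% of all genes passed an adjusted p of 0.05, and limma voom on whole reads also called 0. At an unadjusted p under 0.05, 26 of 44 members were higher (59.1%, against 8.16% of all genes) and 0 lower (against 9.25%). All 5 values on the pro-inflammatory diet lay above all 5 on the normal diet for 15 members (34.1%, against 1.77% of all genes), and for 0 members the reverse held (against 2.07%). The smallest adjusted p of a member was 0.151. The count of 26 was 17 without normal diet library 5 (against 6.50% of all genes) and 18 to 33 without any other single library.

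**Figure D1:**
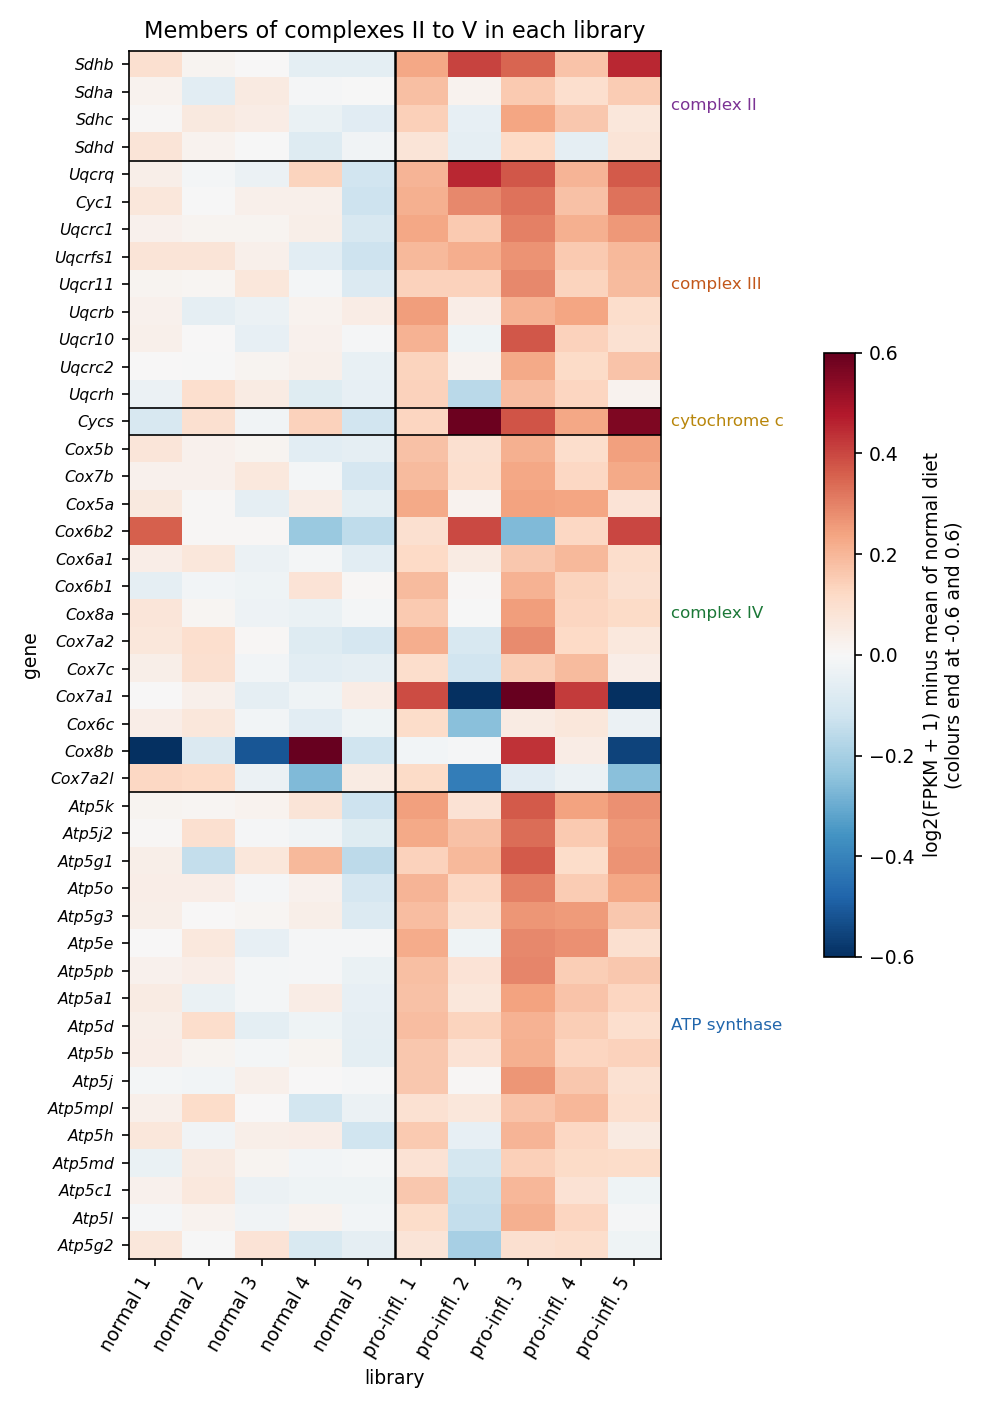
Heat map of 44 members (rows, grouped by complex and ordered by diet difference) in 10 libraries (columns). Colours give log2(FPKM + 1) minus the mean of the 5 normal diet libraries, and end at -0.6 and 0.6. Most members are redder in pro-inflammatory diet libraries 1, 3, 4 and 5, while library 2 is paler for many but deep red for Sdhb, Uqcrq and Cycs, and Cox7a1 is deep blue in libraries 2 and 5.

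Complex II, the succinate dehydrogenase, had its clearest difference in the iron-sulphur subunit Sdhb (chr4:140961203-140979193, plus strand, GRCm38). Sdhb was at 140.4, 133, 131, 126 and 126 FPKM in normal diet libraries 1 to 5 and at 154, 174, 167, 148 and 179.6 in pro-inflammatory diet libraries 1 to 5. The diets did not overlap (log2 fold change 0.32, SE 0.07, limma adjusted p = 0.151), and pro-inflammatory diet libraries 2 and 5 were the highest. Sdha, the flavoprotein that binds succinate, was at 173, 163, 177, 169 and 170.0 against 193, 172, 190.0, 182 and 189 FPKM, so that library 2 fell inside the normal diet range (log2 fold change 0.12, SE 0.05). The membrane anchors Sdhc and Sdhd had log2 fold changes of 0.11 and 0.03, with overlapping diets, and Sdhd was at -0.04 with the length trend removed. Within a complex of 4 proteins the log2 fold changes therefore ran from 0.03 to 0.32. Without pro-inflammatory diet libraries 2 and 5, that of Sdhb was 0.25.

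Complex III had 9 of 9 members higher, with a median log2 fold change of 0.18, 7 of them at an unadjusted p under 0.05 (against 8.16% of all genes) and 5 without overlap between the diets (against 1.77%). With the trend of fold change on gene length removed, 8 of 9 were above 0, with a median of 0.09 and Uqcrh at -0.03. Uqcrq, a small subunit of the membrane part (chr11:53427922-53430831, minus strand), was at 76.1, 73.6, 72.4, 81.5 and 68.5 FPKM on the normal and at 85.7, 102, 96.6, 85.8 and 96.1 on the pro-inflammatory diet. Every pro-inflammatory diet value was above every normal diet value (log2 fold change 0.32, SE 0.07, limma adjusted p = 0.151). Cyc1, the haem-bearing cytochrome c1 (chr15:76343523-76346260, plus strand), was at 143, 136, 139, 139 and 125 against 158, 166, 171, 154 and 171 FPKM (log2 fold change 0.27, SE 0.06, limma adjusted p = 0.151). Its diets did not overlap either. The core protein Uqcrc1, the Rieske iron-sulphur protein Uqcrfs1 and the small subunit Uqcr11 also had no overlap, with log2 fold changes of 0.23, 0.21 and 0.18. The remaining members Uqcrb, Uqcr10, Uqcrc2 and Uqcrh overlapped, at 0.17, 0.16, 0.13 and 0.06. Uqcrh, the hinge protein beside cytochrome c1, had the highest level of the complex, at 508 to 646 FPKM over all libraries, and Uqcrq the lowest, at 68.5 to 102.

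Cycs, the soluble cytochrome c that carries electrons between complexes III and IV and that triggers apoptosis when released (chr6:50562563-50566538, minus strand), had a log2 fold change above those of the other members tested, an order that did not hold under each alternative. It was at 35.6, 40.9, 37.6, 42.1 and 35.2 FPKM on the normal and at 41.9, 57.9, 49.8, 45.0 and 56.7 on the pro-inflammatory diet (log2 fold change 0.38, SE 0.10, limma adjusted p = 0.172). Library 1 of the pro-inflammatory diet lay just under normal diet library 4, so the diets overlapped, and libraries 2 and 5 were the highest. Without those libraries the log2 fold change was 0.25, below those of several members, among them Cox7a1 at 0.47, Atp5k at 0.28 and Atp5e at 0.26. With a score of smooth muscle minus epithelial markers as a covariate it was 0.21. This too was below several members, among them Sdhb at 0.30, Cox6b2 at 0.26 and Uqcrq at 0.25.

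**Figure D2:**
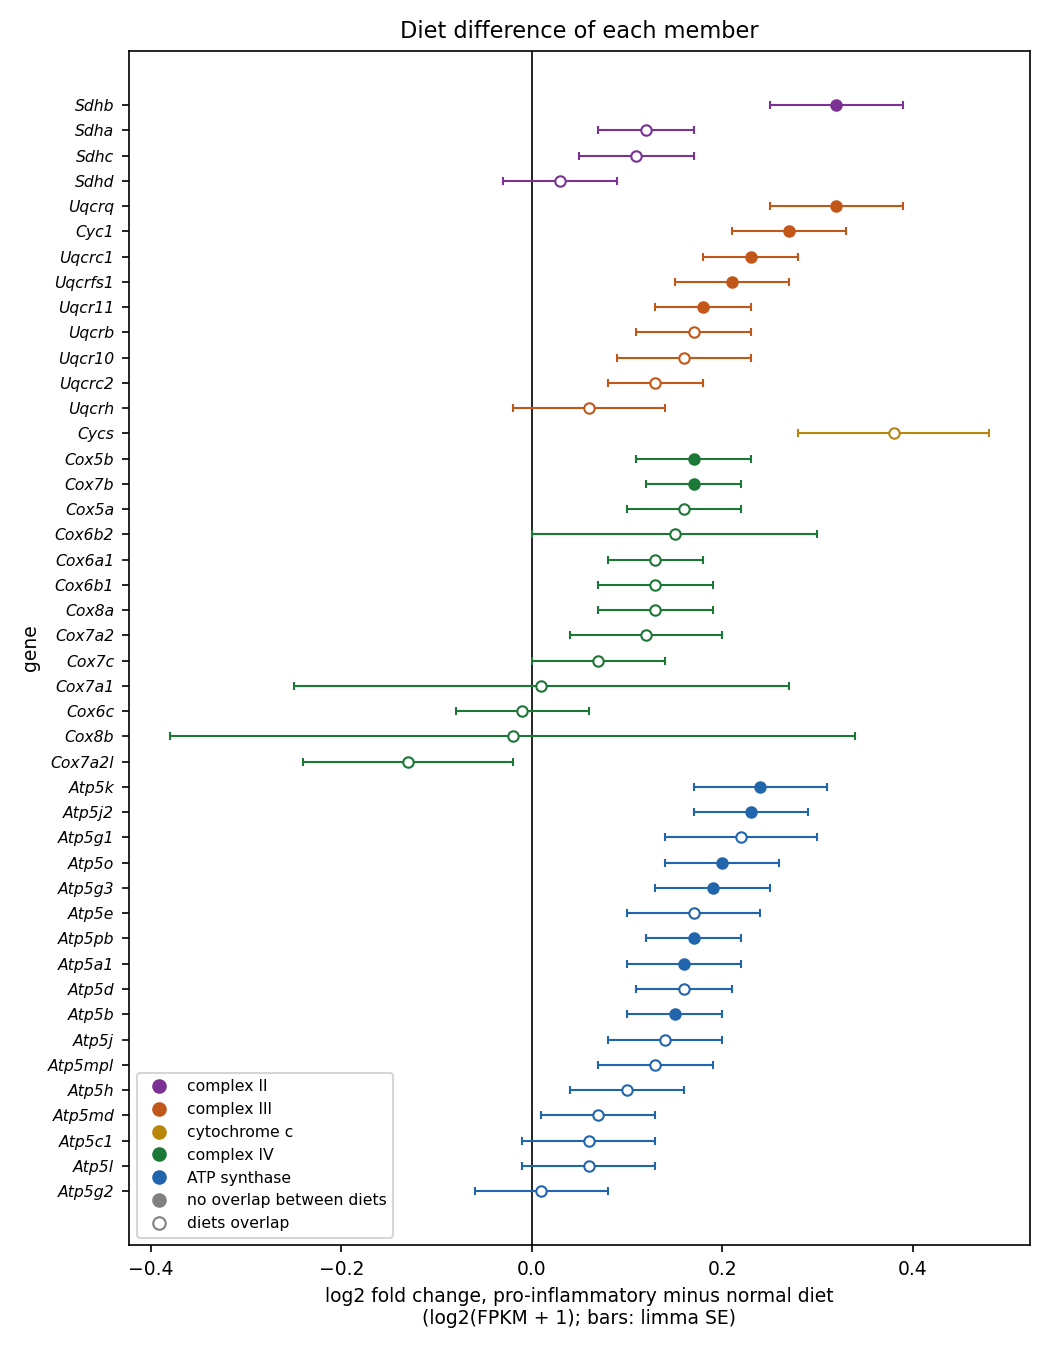
Log2 fold change (pro-inflammatory minus normal diet, on log2(FPKM + 1)) of 44 members with the limma SE as bars, coloured by complex. Filled points mark the 15 members whose diets do not overlap. Cycs is at 0.38 and Cox7a2l at -0.13, and the widest bars belong to Cox8b and Cox7a1.

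Complex IV held all 3 members with a log2 fold change below 0. Of 13 tested, 10 had a log2 fold change above 0, 4 at an unadjusted p under 0.05 (against 8.16% of all genes), and the median was 0.13. With the length trend removed, 8 of 13 were above 0 and the median was 0.04. Its summed level was 3667 ± 93.2 FPKM with the normal diet and 3939 ± 237 with the pro-inflammatory one, and pro-inflammatory diet library 2, at 3558, was below every normal diet library. The smallest p values were those of Cox7b and Cox5b. Cox7b, a small membrane subunit encoded on the X chromosome, was at 242, 242, 249, 236 and 221 FPKM against 271, 255, 279, 259 and 278, without overlap (log2 fold change 0.17, SE 0.05, limma adjusted p = 0.184). Cox5b, the zinc-binding subunit on the matrix side, was at 444, 429.7, 427, 404 and 407 against 477, 452, 489.9, 454 and 500.2 FPKM, also without overlap (log2 fold change 0.17, SE 0.06). Its partner Cox5a had a log2 fold change of 0.16. Cox7c, a small membrane subunit, was at 0.07.

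Several complex IV subunits exist as a widely expressed form and a form best known from heart, skeletal muscle or testis. The widely expressed forms predominated. Cox6b1 was at 619, 637, 632, 682 and 647 FPKM against 734, 647, 742, 706 and 688, and Cox6b2, the form known from testis, at 5.11, 3.79, 3.78, 3.09 and 3.29 against 4.09, 5.28, 2.96, 4.18 and 5.29. Both pairs overlapped between the diets (log2 fold changes 0.13 and 0.15). Cox6b2 rested on 33 to 56 reads per library and made up 0.398% to 0.819% of the pair. Cox6a1 was at 510.3, 521, 485, 493 and 475 against 539.6, 514, 556, 568 and 534 FPKM, and Cox8a at 525, 503, 489, 485 and 496 against 556, 499, 595, 545 and 540.4 (log2 fold change 0.13 for each). In both genes pro-inflammatory diet library 2 lay inside the normal diet range and the other 4 libraries of that diet above it.

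The muscle forms Cox6a2 and Cox8b were highest in the same library. Cox6a2 (chr7:128205435-128206387, minus strand) was listed at 0.646, 0.194, 0, 5.42 and 0.0839 FPKM on the normal and at 0.342, 0.0867, 0.165, 0 and 0 on the pro-inflammatory diet. These values stand for 63 reads in normal diet library 4 and 0 to 7 in each other library, and Cox6a2 was the 1 member under the limit of 1 FPKM. Cox8b (chr7:140898945-140900446, minus strand) was at 0.670, 1.58, 0.924, 6.40 and 1.52 against 1.71, 1.73, 2.70, 1.83 and 0.866 FPKM, with 41 reads in normal diet library 4 and 4 to 18 elsewhere. Normal diet library 4 was the one with the striated muscle genes: Ckm was at 100.5 FPKM there and at most 17.2 elsewhere, and Tnnt3 at 105 against 0.108 to 0.465. Cidea, of the adipocyte markers, was also highest in normal diet library 4, at 5.75 FPKM against 0.108 to 0.576 elsewhere. The adipocyte markers Adipoq, Plin1, Fabp4 and Cfd were highest in pro-inflammatory diet library 2. The part of striated muscle or fat in the levels of Cox6a2 and Cox8b was not tested. Without this library the log2 fold change of Cox8b went from -0.02 to 0.34.

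Cox7a1, the form of subunit 7a known from heart, skeletal muscle and brown fat (chr7:30184144-30186078, plus strand), had an unusual spread. On the normal diet it was at 35.3, 35.9, 33.9, 34.5 and 36.3 FPKM. On the pro-inflammatory diet it was at 46.5, 54.3 and 47.4 in libraries 1, 3 and 4, above every normal diet value, and at 20.5 and 22.5 in libraries 2 and 5, below every one. The mean difference was close to 0 (log2 fold change 0.01, SE 0.26), and without libraries 2 and 5 it was 0.47. Unlike Cox6a2 and Cox8b, Cox7a1 was not higher in normal diet library 4 than in the other 4 of that diet. Libraries 2 and 5 were those low in the distal Hox genes, with Hoxb13 at 0.417 and 20.9 FPKM against 211 to 341 elsewhere, while their smooth muscle sums were 2387 and 3264 FPKM, against 2568 to 2887 in libraries 1, 3 and 4. The part of colon position or muscle in the level of Cox7a1 was not tested.

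Cox7a2, the widely expressed form, was at 222, 227, 213, 200.3 and 197 against 246, 198, 257, 229 and 221 FPKM, again with library 2 low (log2 fold change 0.12, SE 0.08). Cox7a1 thus made up 13.7% to 15.6% of the pair on the normal diet, 15.9% to 17.4% in pro-inflammatory diet libraries 1, 3 and 4, and 9.38% and 9.26% in libraries 2 and 5. Cox7a2l, the supercomplex factor (chr17:83501918-83517330, minus strand), was at 175, 175, 157, 134 and 166 against 174, 120.3, 153, 157 and 135 FPKM (log2 fold change -0.13, SE 0.11, limma adjusted p = 0.529). Its lowest value was in pro-inflammatory diet library 2, its diets overlapped, and without libraries 2 and 5 its log2 fold change was 0.00. Cox6c, a small membrane subunit, was at 468, 477, 450.4, 436 and 448 against 492, 383, 471, 478 and 444 FPKM (log2 fold change -0.01, SE 0.07), with library 2 the lowest of all.

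**Figure D3:**
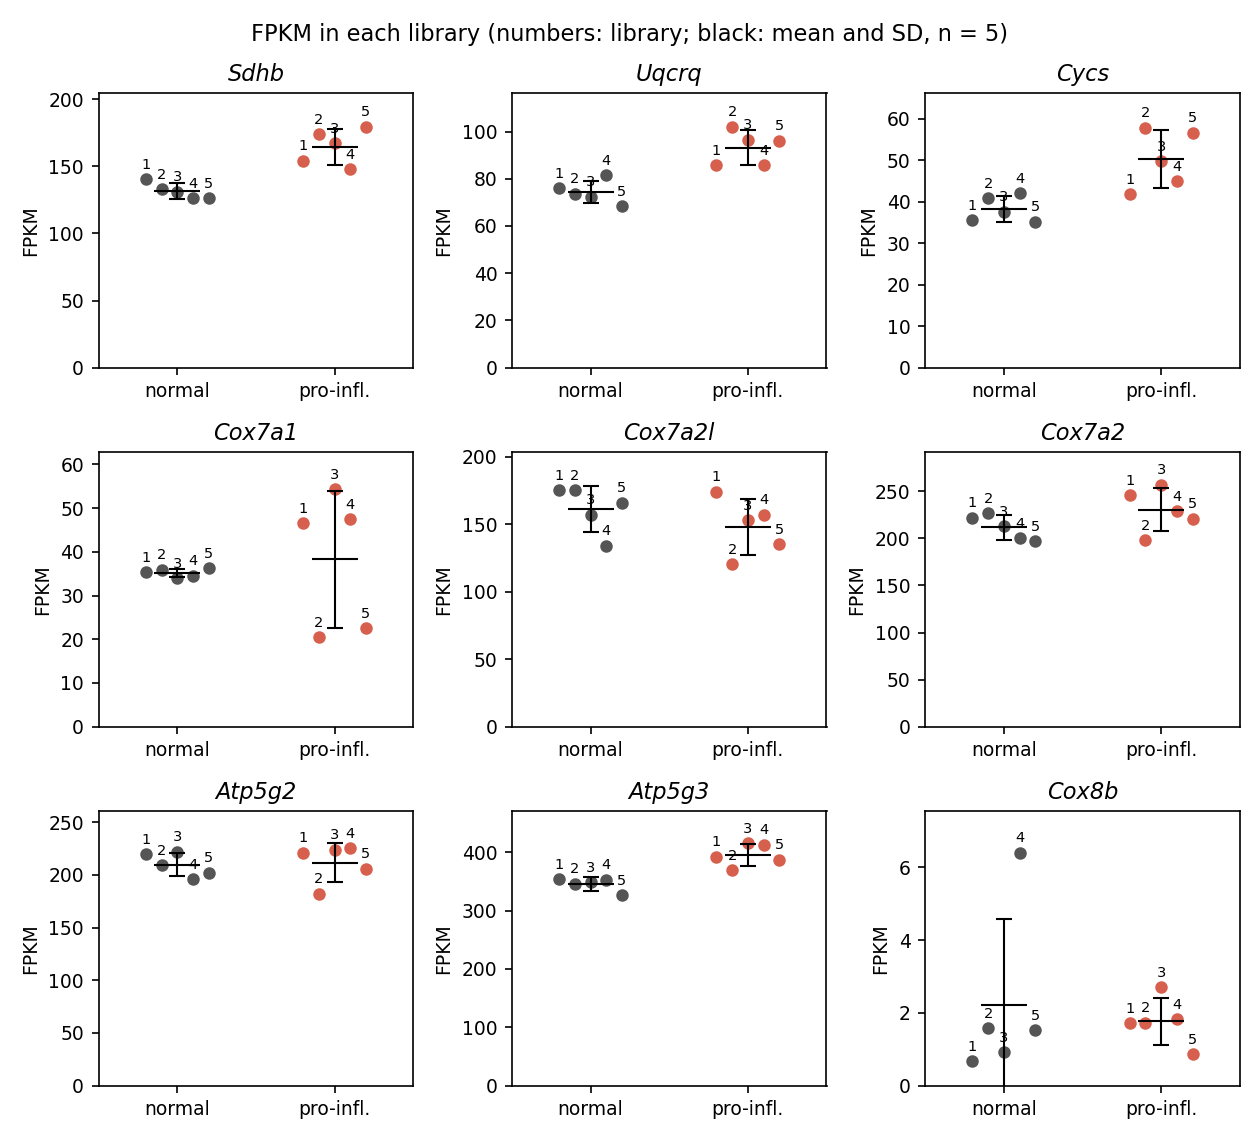
FPKM of 9 members in each library, with the library number above each point and the mean and SD of 5 libraries in black. Sdhb and Uqcrq separate by diet, Cox7a1 splits into libraries 1, 3 and 4 above and 2 and 5 below the normal diet values, and Cox8b is high at 6.40 FPKM in normal diet library 4.

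ATP synthase had 17 of 17 members with a log2 fold change above 0, 12 at an unadjusted p under 0.05 (against 8.16% of all genes) and 7 without overlap (against 1.77%), and its median was 0.16. With the length trend removed, 14 of 17 were above 0 with a median of 0.10, and Atp5g2, Atp5l and Atp5md were below 0. The complex summed to 4890.2 ± 120.2 FPKM with the normal diet and 5437 ± 273 with the pro-inflammatory one. The catalytic beta subunit Atp5b had the highest level of any member, at 864, 848, 831, 849 and 804 FPKM against 938, 892, 973, 919 and 923. Its diets did not overlap (log2 fold change 0.15, SE 0.05, limma adjusted p = 0.218). The 5 genes of the catalytic head F1, Atp5a1, Atp5b, Atp5c1, Atp5d and Atp5e, had log2 fold changes of 0.06 to 0.17, with the gamma subunit Atp5c1 lowest. The 12 genes of the membrane part and the stalk ran from 0.01 to 0.24, with the same median of 0.16. The smallest p values belonged to small membrane subunits. Atp5j2, subunit f, was at 403, 429, 399.5, 396 and 382 FPKM against 470.4, 453, 507, 448 and 481 (log2 fold change 0.23, SE 0.06, limma adjusted p = 0.166). Atp5k, subunit e of the dimer interface, was at 273, 272, 274, 285 and 248 against 320.1, 287, 349, 319 and 327 FPKM (log2 fold change 0.24, SE 0.07). Neither gene overlapped between the diets, although for Atp5k the gap was only that between 285 FPKM in normal diet library 4 and 287 in pro-inflammatory diet library 2. Atp5o, Atp5pb and Atp5a1 also had no overlap, at 0.20, 0.17 and 0.16.

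The proton-carrying c ring is encoded by Atp5g1, Atp5g2 and Atp5g3, which give the same mature protein from different precursors. Atp5g3 was at 354, 346, 349, 353 and 326 FPKM against 392, 369, 415, 413 and 387, without overlap (log2 fold change 0.19, SE 0.06, limma adjusted p = 0.173). Atp5g1 was at 107, 94.1, 109, 119 and 93.3 against 114, 119, 135, 112 and 126 FPKM (log2 fold change 0.22, SE 0.08). Atp5g2 was at 219.7, 209, 222, 196 and 202 against 221, 182, 224, 225 and 206 FPKM (log2 fold change 0.01, SE 0.07). Atp5g3 made up 51.3% to 53.4% of the 3 genes on the normal and 53.6% to 55.0% on the pro-inflammatory diet. The share of Atp5g2 was 29.3% to 32.6% against 27.2% to 30.3%, and overlapped. Near-identical copies of these genes in the genome can share reads, so the split between them is uncertain.

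The pro-inflammatory diet libraries did not contribute alike. Library 3 was the highest of the 5 for 31 of 44 members and library 2 the lowest for 33. Total FPKM over all genes was likewise highest of the 5 in library 3, at 404462, and lowest in library 2, at 380703. The part of this total in the ranking was not tested. Libraries 1, 3, 4 and 5 lay above every normal diet library for 37, 40, 39 and 30 of 44 members, where the shares of all genes tested were 19.5%, 23.1%, 16.5% and 23.4%. Library 2 did so for 19 members, against 28.6% of all genes. The sum of all members was 11570.4 FPKM in library 2, inside the normal diet range of 11032 to 11643, and 12429 to 13363 in the other 4. Libraries 2 and 5 lay both below libraries 1, 3 and 4 in 22 of 44 members (against 27.7% of all genes tested), and both above them in 3, Sdhb, Cycs and Cox6b2 (6.82%, against 22.2%). Without libraries 2 and 5, 43 of 44 members were above 0, with a median of 0.18. The diets then did not overlap in 35 members that were higher (against 5.24% of all genes), and without library 2 alone in 27 (against 2.47%). Without normal diet libraries 1, 2 and 3, 42 members were above 0 with a median of 0.17, and 21 did not overlap and were higher (against 4.80% of all genes).

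Gene length and tissue markers also differed along with diet. Over all genes the median log2 fold change was 0.09 for 463 genes up to 0.25 of the median length and -0.06 for 6161 genes longer than the median, and the median length of the members was 0.226 of it. With the trend on length removed, 34 of 44 members were above 0 with a median of 0.08, 6 did not overlap and were higher (against 1.51% of all genes), and 9 were higher at an unadjusted p under 0.05 (against 7.42%). Cytosolic ribosomal protein genes, of similar length (0.238 of the median), had 21 of 82 members above 0, a median of -0.03 and 0 at an unadjusted p under 0.05 in either direction. This turned without pro-inflammatory diet libraries 2 and 5, where the median was 0.11. In those libraries the ribosomal genes summed to 38712 and 42052 FPKM, and in the remaining 8 to between 45765 and 52738. The part of length, tissue or these libraries in the level of the members was not tested. Smooth muscle markers were lower in 10 of 10 (7 at an unadjusted p under 0.05, against 9.25% of all genes, median -0.33) and epithelial markers higher in 7 of 10 (median 0.20, or 0.09 when pro-inflammatory diet libraries 2 and 5 were left out). Leukocyte markers were above 0 in 6 of 6 (median 0.37) and adipocyte markers in 4 of 4 tested (median 0.75), with 0 of either at an unadjusted p under 0.05 in limma. Without the same libraries their medians were 0.13 and -0.04. The tissue covariate of the limma fit was the smooth muscle score less the epithelial one. With it, 42 members were above 0 with a median of 0.15, and 11 were higher at an unadjusted p under 0.05 (against 5.19% of all genes).

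**Figure D4:**
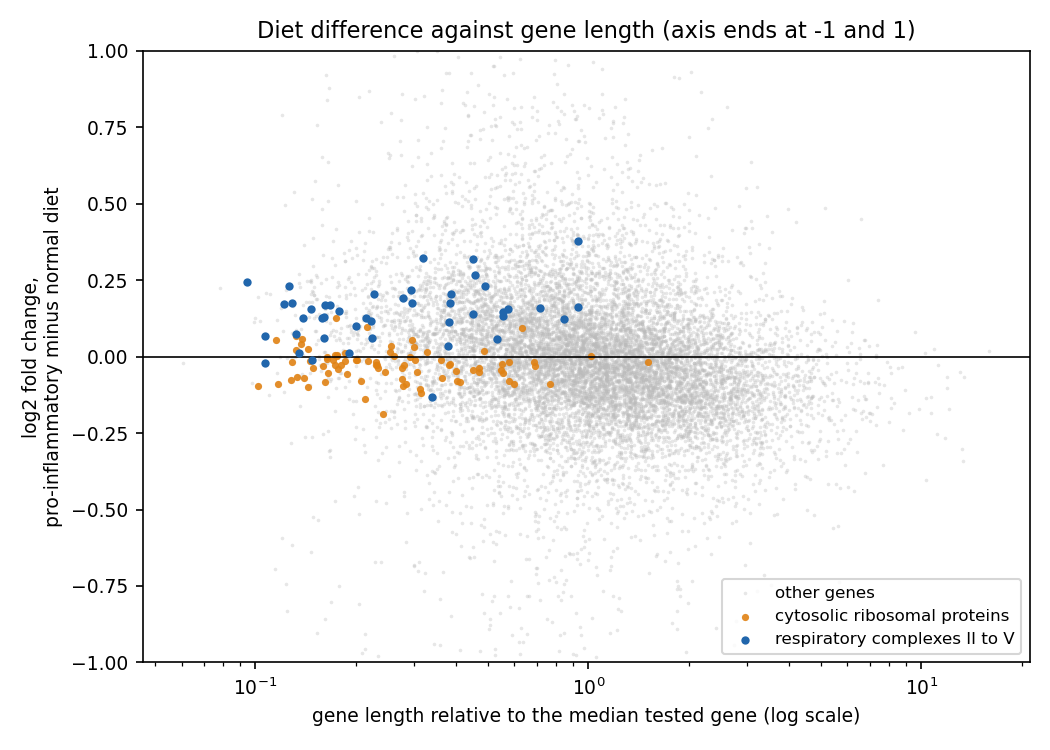
Log2 fold change of the tested genes with a known relative length, against that length relative to the median tested gene (log scale). The members are in blue and cytosolic ribosomal protein genes in orange. The vertical axis ends at -1 and 1, and genes beyond these values, which reach -2.41 and 2.75, are not shown. Both coloured groups lie mostly on the short side, with medians of 0.15 and -0.03, the second of which is 0.11 without pro-inflammatory diet libraries 2 and 5.

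Among the other genes of the pathway, most lists had medians near that of the members. Cox4i1, subunit 4 of complex IV, was at 751, 759, 753, 705 and 720.1 FPKM against 841, 822, 826, 833 and 809, without overlap (log2 fold change 0.16, SE 0.05, limma adjusted p = 0.185), and its low-oxygen form Cox4i2 at 1.31 ± 0.297 against 1.44 ± 0.534. Atpif1, the inhibitor that binds ATP synthase, was at 68.5 ± 4.44 against 83.4 ± 10.9 FPKM (log2 fold change 0.27). Complex I subunits, which pass electrons from NADH to ubiquinone, had 38 of 42 above 0 with a median of 0.14. Of the tricarboxylic acid cycle genes, which feed the chain, 13 of 14 were above 0 (median 0.13), with Mdh2 and Idh3g at log2 fold changes of 0.24 and 0.16. Mitochondrial ribosomal protein genes had 71 of 78 above 0 (median 0.12), with Mrpl58, Mrps28 and Mrpl2 at 0.28, 0.37 and 0.25. Higher at an unadjusted p under 0.05 were 52.4% of the complex I, 42.9% of the cycle and 25.6% of the mitochondrial ribosomal genes. For all genes this share was 8.16%. In the same order, 21.4%, 28.6% and 6.41% were higher without overlap between the diets (against 1.77% of all genes).

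Assembly factors were less even. Complex IV assembly genes had 17 of 19 tested above 0, with a median of 0.10 and 5 at an unadjusted p under 0.05 (against 8.16% of all genes). Coa3, an early factor of Cox1 assembly, was at 90.5 ± 6.03 against 116 ± 13.3 FPKM, and Cox10, which makes haem for the enzyme, at 10.8 ± 0.826 against 13.1 ± 0.799, with Pet100 at a log2 fold change of 0.17. The complex II factors had 1 of 4 above 0 (median -0.08) and the complex III factors 3 of 6 (median 0.03). The ATP synthase factors had 2 of 3 above 0, the F1 chaperones Atpaf1 and Atpaf2 at log2 fold changes of 0.20 and 0.16, and the third was at -0.09. No gene of these lists passed the adjusted threshold.

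Regulators of mitochondrial gene expression had 7 of 12 above 0 and a median of 0.01. Esrra, a nuclear receptor that binds many genes of the chain, was at 49.6, 51.4, 51.1, 54.6 and 58.3 FPKM against 62.4, 57.7, 62.8, 61.1 and 55.7, and overlapped (log2 fold change 0.18, SE 0.06, limma adjusted p = 0.202). The coactivator Ppargc1a was at 5.49, 3.58, 2.75, 5.40 and 6.54 against 6.77, 2.23, 4.90, 5.86 and 2.38 FPKM (log2 fold change -0.13, SE 0.29), lowest in pro-inflammatory diet libraries 2 and 5. Ppargc1b, Nrf1, Gabpa and Tfam had log2 fold changes of 0.00, 0.05, -0.13 and 0.11, with overlapping values.

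Promoters of the members were searched for the motifs of such regulators, because most members were higher together. RefSeq promoters on GRCm38.p6 were found for 36 of 45 members, and the 250 bases before the start were read on both strands. The NRF1 motif, which reads GCGCA, any base, then GCGC, or the reverse complement of this, was in 7 of them (19.4%), against 9.04% of 9889 tested genes and 4.23% of all 27025 genes with a promoter. The ETS motif CCGGAAG, which GABPA binds, was in 9 of 36 (against 15.4% of tested genes and 7.83% of all), the motif AAGGTCA of estrogen-related receptors in 2 (5.56%, against 3.49% and 4.70%) and the YY1 motif AANATGGC in 1 (2.78%, against 5.17% and 4.49%). Matches of the NRF1 motif on both strands can share letters and were counted once per promoter. Sdhb and Cycs held none of the 4 motifs in this window, and neither did many other members, among them Atp5b, Atp5j2, Cox5b, Cox7b and Uqcrc1. For 3 complexes, the member with the smallest p whose NRF1 match lay outside the transcribed region is shown in a window of 60 bases, 5′ to 3′ on the gene's strand, with the match in capitals. The windows are chr13:74350281-74350340 for Sdha, chr5:115349041-115349100 for Cox6a1 and chr11:115420026-115420085 for Atp5h, subunit d of the stalk, all on the minus strand.
Sdha: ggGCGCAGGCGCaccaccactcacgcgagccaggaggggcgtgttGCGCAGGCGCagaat
Cox6a1: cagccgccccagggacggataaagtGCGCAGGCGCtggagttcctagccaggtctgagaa
Atp5h: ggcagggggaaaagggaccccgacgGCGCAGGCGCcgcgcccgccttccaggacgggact
Sdha holds 2 matches in its window, and Cox6a1 and Atp5h 1 each. The 7 members with an NRF1 match ran from a log2 fold change of 0.01 in Atp5g2 and 0.03 in Sdhd, over 0.06 in Atp5c1, 0.10 in Atp5h, 0.12 in Sdha and 0.13 in Cox6a1, to 0.24 in Atp5k.

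Exons of 9 members overlapped a gene on the other strand in GENCODE M21: Atp5a1, Atp5d, Atp5j, Atp5l, Cox5a, Cox6a2, Cox6c, Uqcrb and Uqcrc2. The library kit keeps the strand, but no label says whether counting used it, so their levels are uncertain to that extent.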

How the data were processed

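The authors deposited FPKM values per gene symbol and library; per the submitters' processing notes, mm10 was used with DESeq, StringTie, Cufflinks, HTSeq, HISAT2, Bowtie2 and Trimmomatic, in roles not given in the sources used here. Every value of the 16843 genes above 0 in at least 4 libraries was a whole multiple of what 1 read is worth, within 0.001 read, which gave the reads per library and relative gene lengths. The smallest chi-square per gene between any pair of libraries was 11.13, above sampling noise, so all were kept as separate samples.

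limma 3.58.1 (R 4.3.3) compared log2(FPKM + 1) between the diets for genes with a mean of at least 1 FPKM (eBayes with mean trend, Benjamini-Hochberg over all genes, two-sided, threshold 0.05). Fold changes on this scale understate those of low genes. The procedure was run on simulated data with independent noise per gene and planted changes larger than that of any member. That run does not show how it handles changes as small as those of the members, or differences shared by many genes of a library. Whether libraries came from separate animals is not given, so p values measure the spread between libraries, which may be technical. Positions are from GENCODE M21 (GRCm38, the assembly of mm10), 1-based, for 42 of 45 symbols. The members, gene lists, motifs and alternatives were chosen with earlier results of these data known. Members given in every sample were the 2 of each complex with the smallest p, all of the Cox6a, Cox6b, Cox7a, Cox7b, Cox8 and Atp5g families, those with a log2 fold change below 0, and Sdha, Cycs, Cyc1 and Atp5b. Of the other lists, at most 3 genes each at an unadjusted p under 0.05 were named, plus Cox4i1, Cox4i2, Atpif1 and 6 regulators, and 1 gene that the rule takes is not reported here; Car1, Arntl, the Hox genes, Ckm and Tnnt3 were named after their values were seen. Alternatives changed the pseudocount, the filter, the scaling, the variance model, the test and the covariates, or left out libraries. Figures were drawn with matplotlib 3.10.9.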

Additional observations from a re-analysis of the deposited data

Results flagged for a closer look

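Of 90 groups (45 members on each diet), 5 held a library whose gap to its nearest neighbour exceeded Dixon's critical share of the group's range, and chance alone sets apart about 1 group in 20. Normal diet library 4 was the highest for Cox6a2, at 5.42 FPKM against 0 to 0.646 in the other 4, and for Cox8b, at 6.40 against 0.670 to 1.58. Normal diet library 5 was the lowest for Uqcrc1, at 162 FPKM against 175 to 177, and for Atp5g3, at 326 against 346 to 354. Pro-inflammatory diet library 2 was the lowest for Atp5md, a small membrane subunit of ATP synthase, at 249.6 FPKM against 285 to 297.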

How the results depend on the processing

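No gene of the table passed under any of 23 alternatives, and 32 of 44 members kept a log2 fold change above 0 in all of them where they were tested. The number of members without overlap, 15, was 6 with the length trend removed, 9 with median-of-ratios scaling and 9 with quantile normalization. It was 35 without pro-inflammatory diet libraries 2 and 5. With 1 library left out it was 15 to 27, the highest without pro-inflammatory diet library 2. Leaving out libraries can only keep or raise this number, so it could not fall below 15 in those settings. Removing the length trend took the median of the members to 0.078, of complex III to 0.086 and of complex IV to 0.036. Complex II was at 0.029 with quantile normalization, complex III at 0.232 without pro-inflammatory diet libraries 2 and 5, and Cycs at 0.205 with the tissue covariate. The cause of these differences was not tested.

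Members near 0 turned direction. With the length trend removed 7 did: Atp5g2 was at -0.078, Cox7a1 at -0.080, Sdhd at -0.036, Uqcrh at -0.028, Atp5l at -0.026, Atp5md at -0.021 and Cox7c at -0.017. With quantile normalization 6 did: Atp5g2 at -0.075, Sdhd at -0.047, Atp5c1 at -0.030, Cox7a1 at -0.009, Atp5l just below 0 and Cox8b at 0.006. Cox6c was at 0.007 with median-of-ratios scaling, 0.026 with the tissue covariate, 0.032 without normal diet libraries 1, 2 and 3 and 0.076 without pro-inflammatory diet libraries 2 and 5. Cox8b was at 0.061 and 0.010 with pseudocounts of 0.1 and 0.5, 0.070 with voom and 0.153 without pro-inflammatory diet libraries 2 and 5, where Cox6b2 was at -0.015 and Cox7a2l at 0.004. With 1 library left out, Cox7a1 ran from -0.140 to 0.201, Cox8b from -0.199 to 0.338, Cox6c from -0.043 to 0.048 and Atp5g2 from -0.013 to 0.063.

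Same-numbered libraries of the diets did not deviate together (correlations of -0.263 to 0.061 over genes), so the numbers were not taken as pairs. With a replicate block 0 genes passed, and 18 of 44 members were higher at an unadjusted p under 0.05 (against 7.07% of all genes), and 26 without it. Overlap between diets has no value under the block or the covariate. Cox6a2, Cox6b2 and Cox8b rest on at most 63 reads in a library, which limits what their values can show.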
